A study of Mus musculus with 6 samples.

Results

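The nonclassical major histocompatibility complex (MHC) class I genes H2-T22, H2-T23, H2-T24, H2-Q4, H2-Q6, H2-Q7 and H2-M3 were followed in granulocyte-monocyte progenitors, the marrow precursors of neutrophils and monocytes. They were taken by symbol from a table of read counts, 7 of its 16539 genes, and all 7 were among the 12097 genes that passed the filter on low counts. The progenitors were sorted from bone marrow of wild-type mice, 3 days after myocardial infarction, and polyadenylated RNA was sequenced. The 3 control libraries came from mice with infarction only, and the 3 other libraries from mice with sleep fragmentation and infarction. Both groups therefore had an infarcted heart, and samples without infarction were not analysed here. The labels do not give the age or number of the mice or whether mice were pooled, and p-values here reflect library-to-library spread alone, which may be technical. Total counts lay between 28971253 and 31665923.

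Class I molecules are cell-surface proteins made of a polymorphic heavy chain and the light chain beta-microglobulin (B2m). Classical heavy chains, H2-K and H2-D in the mouse, show peptides of the cell's own proteins to CD8 T cells on nearly every cell. Nonclassical heavy chains vary less between individuals and have narrower tasks: some hold a restricted set of peptides for receptors of natural killer (NK) cells and unconventional T cells, some bind no peptide, and some are secreted or tied to the membrane by a lipid anchor. Interferons raise many class I genes through an interferon element before the transcript start, the NLRC5 transactivator acts through a nearby module, and NF-kB acts through an upstream element.

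The stretches before the transcript start are shown because they hold this control region and because they let the likeness of the members be seen. RefSeq (build GRCm38.p6) gave a promoter for 6 of the 7 members, all on chromosome 17, and H2-T24 had no entry. Each sequence runs 5′ to 3′ on the strand of the gene over the 200 bases up to the start. The stretches are chr17:36032702-36032901 and chr17:36042743-36042942 on the minus strand, and chr17:35379417-35379616, chr17:35424650-35424849, chr17:35438955-35439154 and chr17:37270034-37270233 on the plus strand. Capitals mark matches to either of 2 forms of the interferon element, TTTCNNTTT and TTTCACTT.
H2-T23: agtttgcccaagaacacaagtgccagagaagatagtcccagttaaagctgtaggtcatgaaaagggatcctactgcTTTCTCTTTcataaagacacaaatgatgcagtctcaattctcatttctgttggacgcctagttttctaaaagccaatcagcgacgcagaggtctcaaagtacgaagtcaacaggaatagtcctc
H2-T22: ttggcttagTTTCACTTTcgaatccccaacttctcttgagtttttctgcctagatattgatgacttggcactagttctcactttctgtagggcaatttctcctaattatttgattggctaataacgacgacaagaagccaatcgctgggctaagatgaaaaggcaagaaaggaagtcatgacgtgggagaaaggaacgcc
H2-Q4: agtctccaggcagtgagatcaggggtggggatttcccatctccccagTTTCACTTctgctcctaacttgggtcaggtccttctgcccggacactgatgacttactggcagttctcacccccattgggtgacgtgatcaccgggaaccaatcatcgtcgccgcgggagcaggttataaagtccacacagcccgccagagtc
H2-Q6: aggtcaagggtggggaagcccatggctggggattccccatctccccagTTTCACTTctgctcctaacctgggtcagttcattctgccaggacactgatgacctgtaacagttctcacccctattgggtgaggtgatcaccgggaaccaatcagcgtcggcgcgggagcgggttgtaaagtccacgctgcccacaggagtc
H2-Q7: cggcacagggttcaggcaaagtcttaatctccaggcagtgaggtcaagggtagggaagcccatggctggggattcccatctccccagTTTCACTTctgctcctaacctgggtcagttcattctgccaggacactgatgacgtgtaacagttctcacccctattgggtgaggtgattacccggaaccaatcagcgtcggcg
H2-M3: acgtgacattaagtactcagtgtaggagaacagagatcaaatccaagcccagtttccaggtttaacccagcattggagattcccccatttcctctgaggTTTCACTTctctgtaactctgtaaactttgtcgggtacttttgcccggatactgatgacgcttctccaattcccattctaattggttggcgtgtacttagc

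All 6 promoters held at least 1 of the 2 forms, which were searched on both strands of the 250 bases before the start and can overlap, as they do in H2-T22. Of 32851 promoters in the table, 3316 held either form. The form TTTCACTT was found in 5 of the 6 members and in 1.36% of all promoters, always in the same orientation as the gene. H2-T23 had only the form TTTCNNTTT, which 9.37% of all promoters held. The NF-kB letters GGGATTCCC began 20 bases before the interferon element in H2-Q6 and 19 bases before it in H2-Q7, and were in 0.301% of all promoters. Only these exact letters were searched, so GGGATTTCCC in H2-Q4, at a similar place before its interferon element, was not counted. The letters CCAAT, a common promoter box, were in all 6 and in 33.8% of all promoters. The letters were chosen after the promoters were seen, and a match describes the sequence and is not a shown binding site.

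**Figure D1:**
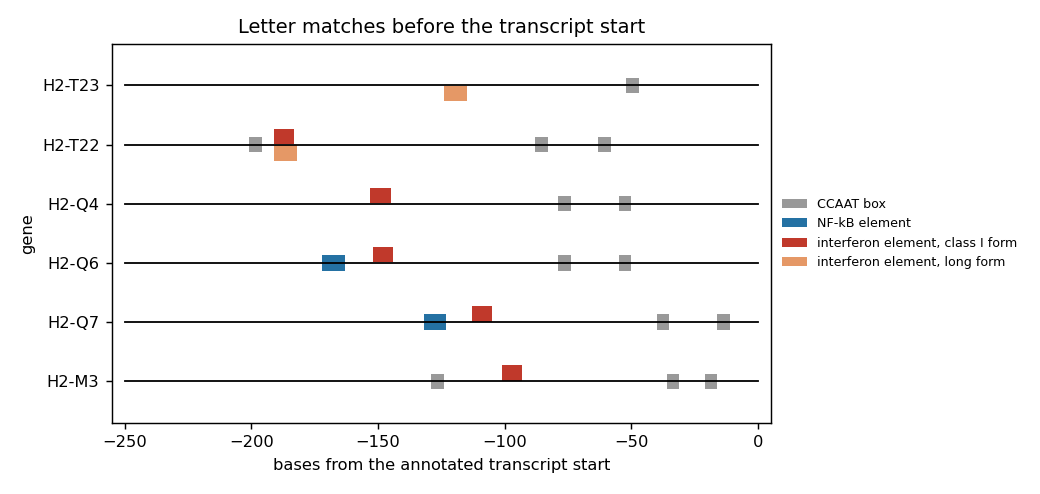
Letter matches in the 250 bases before the annotated transcript start of 6 members, in bases from the start. Red and orange boxes are the 2 forms of the interferon element, which each promoter holds at least once, blue boxes the NF-kB letters in H2-Q6 and H2-Q7, and grey boxes CCAAT on either strand.

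The same likeness runs through the transcripts and bears on how far reads of single members can be told apart. Of the distinct 100-base windows of the protein-coding GENCODE M21 transcripts (build GRCm38), 17.2% in H2-Q7, 12.4% in H2-T22, 10.8% in H2-Q6, 7.28% in H2-T23 and 2.66% in H2-Q4 were also in a transcript of another gene. No such window was shared in H2-T24 or H2-M3 (0.0% each). Of 50-base windows, 43.9% were shared in H2-T22, 34.9% in H2-Q7, 32% in H2-Q6, 28.8% in H2-T23, 24.3% in H2-Q4, 3.17% in H2-T24 and 0.576% in H2-M3. The read length is not given in the sources used here. Most shared 100-base windows of H2-T22 were in H2-T10, and those of H2-Q6 and H2-Q7 mainly in each other and, for H2-Q7, in H2-Q5. H2-Q9, a further near copy of H2-Q7, was not in the transcript table, so these shares are lower limits for H2-Q6 and H2-Q7. Values of H2-Q6, H2-Q7, H2-T22, H2-T23 and H2-Q4 are uncertain for this reason.

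Levels spanned a wide range within the family. Expression is given as CPM, the count per 1e+06 counts of the scaled library, and as CPM per kilobase of protein-coding exons where genes are compared. In control, H2-T23 had the highest level at 53.2 ± 6.25 CPM per kilobase (SD, n = 3). H2-Q4 followed at 38.9 ± 4.66, H2-T22 at 19.0 ± 2.12, H2-T24 at 11.2 ± 3.20, H2-M3 at 6.47 ± 1.52, H2-Q7 at 1.04 ± 0.44 and H2-Q6 at 0.43 ± 0.18 CPM per kilobase (SD, n = 3 for each). In that order the control libraries of H2-T24 and H2-M3 overlapped, as did those of H2-Q7 and H2-Q6, and other neighbours did not. The classical heavy chains stood above all members, H2-D1 at 402.9 ± 54.4 and H2-K1 at 314.2 ± 37.2 CPM per kilobase. After sleep fragmentation H2-T24 had 25.5 ± 10.7 CPM per kilobase and H2-T22 22.6 ± 5.06, with overlapping libraries, as had H2-T23 (69.5 ± 14.7) and H2-Q4 (47.4 ± 15.1).

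The question put to the members was whether sleep fragmentation changed their RNA in the progenitors after infarction. H2-T24 was the member with the largest difference, 2.27-fold higher on average after sleep fragmentation, and it was the only member whose groups did not overlap. H2-T23 was 1.31-fold higher. H2-Q7, with few reads, was 1.97-fold higher with overlapping groups (edgeR unadjusted p = 0.11). The remaining members differed by less than the spread between replicates or were set by single libraries. Adjusted over all genes, edgeR's quasi-likelihood test passed no member (adjusted p = 0.99988 for each of the 7) and called 0 of 12097 genes (0%). At an unadjusted p under 0.05 there were 341 genes (2.82%), and DESeq2 called 13 genes, none of them a member. In bulk RNA, more cells of a type and more RNA per cell cannot be told apart. At that unadjusted level 2 of the 7 members were higher, H2-T24 and H2-T23, where 2.16% of all genes were higher, and no member was lower, where 0.661% of all genes were.

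H2-T23 (Entrez Gene 15040) encodes Qa-1, which holds leader peptides of classical class I chains for the CD94/NKG2A receptor of NK cells. It had 69.9, 88.1 and 76.8 CPM in control replicates 1 to 3 and 127.1, 87.0 and 93.1 CPM in sleep fragmentation replicates 1 to 3. Sleep fragmentation replicate 1 stood highest, and replicate 2 of that group lay just below control replicate 2, so the groups overlapped. The log2 fold change was 0.39 (SE 0.16, edgeR unadjusted p = 0.043), and it was 0.20 without sleep fragmentation replicate 1. An unadjusted p under 0.05 was reached in 7 of 15 alternative fits. With 1 library left out it was not reached without control replicate 1 or 3 or sleep fragmentation replicate 1 or 3.

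H2-T22 (Entrez Gene 15039) encodes a chain that binds no peptide and is recognised by a subset of gamma-delta T cells. It had 31.5, 32.9 and 38.7 CPM in control and 41.6, 49.4 and 31.2 CPM after sleep fragmentation. Replicates 1 and 2 with sleep fragmentation were above all controls and replicate 3 was below all of them. The log2 fold change was 0.25 (SE 0.18, edgeR unadjusted p = 0.20), and 0.082 without sleep fragmentation replicate 2.

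H2-T24 (Entrez Gene 15042) belongs to the same T region and is less studied than its neighbours. Its counts were 547, 980 and 820 in control and 2167, 1142 and 1370 after sleep fragmentation, or 17.3, 31.2 and 24.9 CPM against 81.0, 35.3 and 50.5 CPM. Each library with sleep fragmentation was above each control, though replicate 2 exceeded the highest control only slightly. Over all genes, 2.92% had groups set apart in this direction, and 3.84% in the lower direction, which no member showed. The means were 24.5 ± 6.98 and 55.6 ± 23.3 CPM (SD, n = 3), a log2 fold change of 1.18 (SE 0.31, edgeR unadjusted p = 0.0042). It lay between 0.81 and 1.43 when any 1 library was left out, and DESeq2 gave the lowest adjusted p of the alternatives (0.13), and the highest was 1.

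H2-Q4 (Entrez Gene 15015) encodes Qb-1, a class I molecule that cells can secrete. It had 60.8, 71.1 and 77.4 CPM in control and 67.2, 116.0 and 71.6 CPM after sleep fragmentation. Only sleep fragmentation replicate 2 left the range of the controls. The log2 fold change of 0.28 (SE 0.21, edgeR unadjusted p = 0.20) became -0.0084 without that library.

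H2-Q6 (Entrez Gene 110557) and H2-Q7 (Entrez Gene 15018) belong to the genes of Qa-2, a class I molecule held in the membrane by a lipid anchor. H2-Q6 had few reads, with counts of 16, 29 and 41 in control and 14, 111 and 19 after sleep fragmentation. In CPM these were 0.505, 0.923 and 1.25 in control and 0.523, 3.43 and 0.701 after sleep fragmentation. Sleep fragmentation replicate 2 stood far above all other libraries, and in CPM the other 2 of its group lay within the control range. The log2 fold change of 0.81 (SE 0.74, edgeR unadjusted p = 0.30) turned to -0.54 without that library.

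H2-Q7 had counts of 27, 68 and 59 in control and 32, 119 and 125 after sleep fragmentation. Replicates 2 and 3 with sleep fragmentation were above all controls, and replicate 1 was among them. The log2 fold change was 0.98 (SE 0.54, edgeR unadjusted p = 0.11), and 0.61 without sleep fragmentation replicate 3. The sum of H2-Q6 and H2-Q7 does not depend on how reads were split between these copies. It was 1.36, 3.09 and 3.04 CPM in control and 1.72, 7.11 and 5.31 CPM after sleep fragmentation, with replicate 1 again within the control range. The near copy H2-Q9 had counts of 34, 38 and 46 in control and 12, 65 and 12 after sleep fragmentation, so that replicate 2 was again the highest of its group. With H2-Q9 the sum was 2.43, 4.30 and 4.44 CPM in control and 2.17, 9.12 and 5.75 CPM after sleep fragmentation, and there replicate 1 lay below every control.

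H2-M3 (Entrez Gene 14991) holds peptides that begin with formyl-methionine, as those of bacteria and mitochondria do, for a population of CD8 T cells. It had 8.94, 7.32 and 11.6 CPM in control and 8.64, 12.4 and 9.96 CPM after sleep fragmentation. The groups overlapped, and the log2 fold change was 0.15 (SE 0.23, edgeR unadjusted p = 0.52), or -0.0013 without sleep fragmentation replicate 2.

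**Figure D2:**
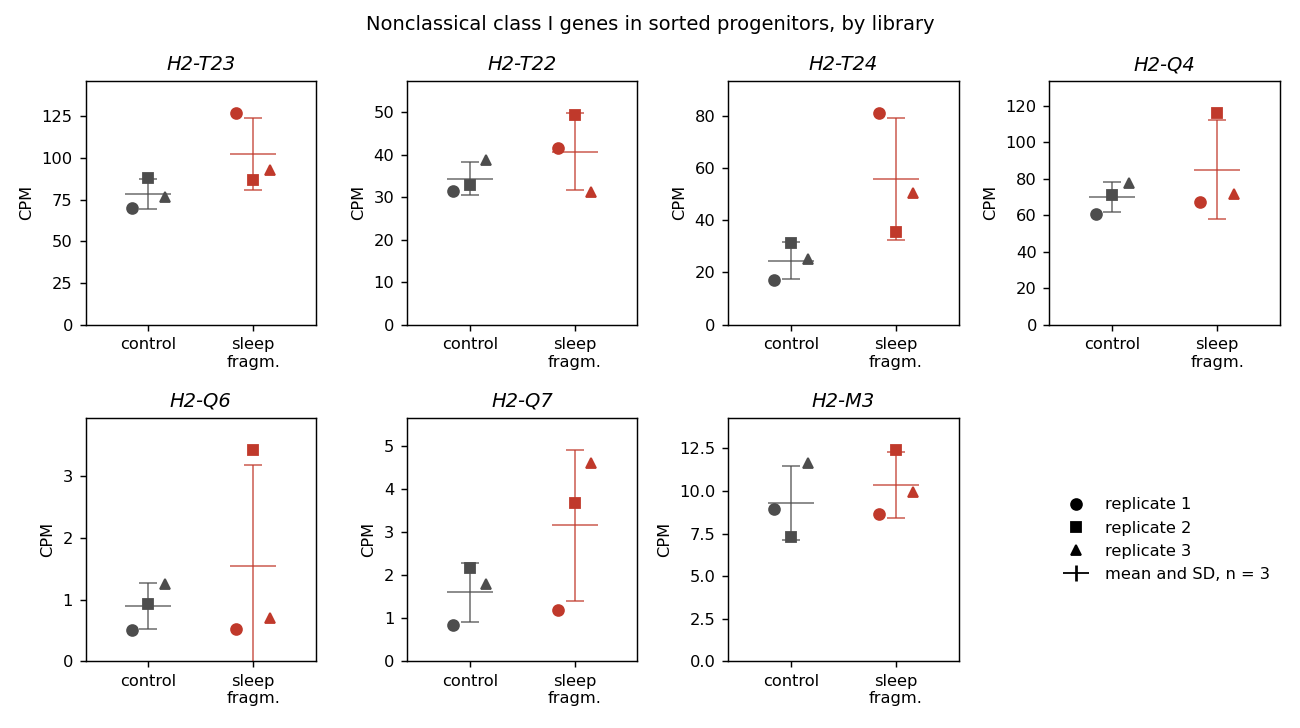
CPM of the 7 members in each library, with the mean and SD of 3 libraries per group (SD bars end at 0) and axes that start at 0. The libraries of H2-T24 did not overlap between groups, while H2-Q4 and H2-Q6 had 1 high library, sleep fragmentation replicate 2 (116.0 and 3.43 CPM).

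As a family, 7 of 7 members had fitted levels above control, where 49% of all genes tested did, and their median log2 fold change was 0.39 against -0.0043 over all genes. Library size alone as scaling moved the median of all genes to -0.11 and that of the members to 0.28, with 7 of 7 still above 0. Without sleep fragmentation replicate 2 only 4 of 7 members were above control and the median was 0.082. The summed level of the 7 members was 189.8, 233.7 and 232.5 CPM in control and 327.2, 307.2 and 261.6 CPM after sleep fragmentation. This was 14.9%, 14.3% and 15.98% of the summed level of H2-K1 and H2-D1 in control and 20.0%, 16.5% and 17.1% after sleep fragmentation. The summed groups did not overlap on either scale, and no test was made of a sum over the members.

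**Figure D3:**
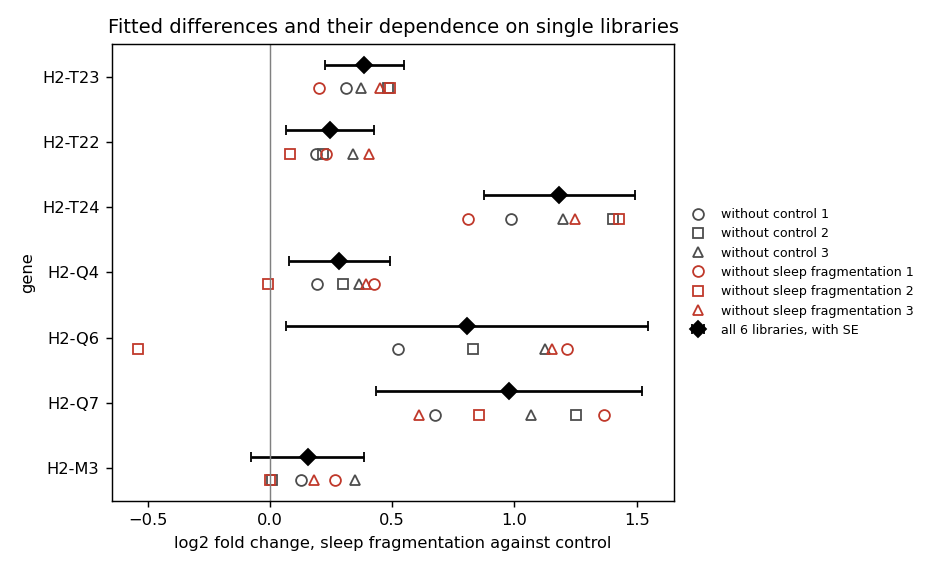
Log2 fold change of each member for sleep fragmentation against control, with its standard error over all 6 libraries (black) and with each library left out in turn (open symbols). H2-T23, H2-T24, H2-T22 and H2-Q7 stayed above 0 throughout, while H2-Q4, H2-Q6 and H2-M3 were at -0.0084, -0.54 and -0.0013 without sleep fragmentation replicate 2.

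The members did not share 1 profile over the 6 libraries. Sleep fragmentation replicate 2 was the highest library for 4 members, H2-T22, H2-Q4, H2-Q6 and H2-M3, and had 6 of the 7 members above every control. Sleep fragmentation replicate 1 was the highest for 2, H2-T23 and H2-T24, and had 3 members above every control. In replicate 1, H2-T24 was 3.31 times the control mean, H2-Q4 0.96 times and H2-Q6 0.59 times. In replicate 2 the same ratios were 1.44 for H2-T24, 1.66 for H2-Q4 and 3.85 for H2-Q6. Control replicate 1 was the lowest library for 5 of the 7 members. These counts were made for the members only, with no share over all genes beside them. A shift of many genes in a library therefore cannot be told apart from a trait of the members.

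**Figure D4:**
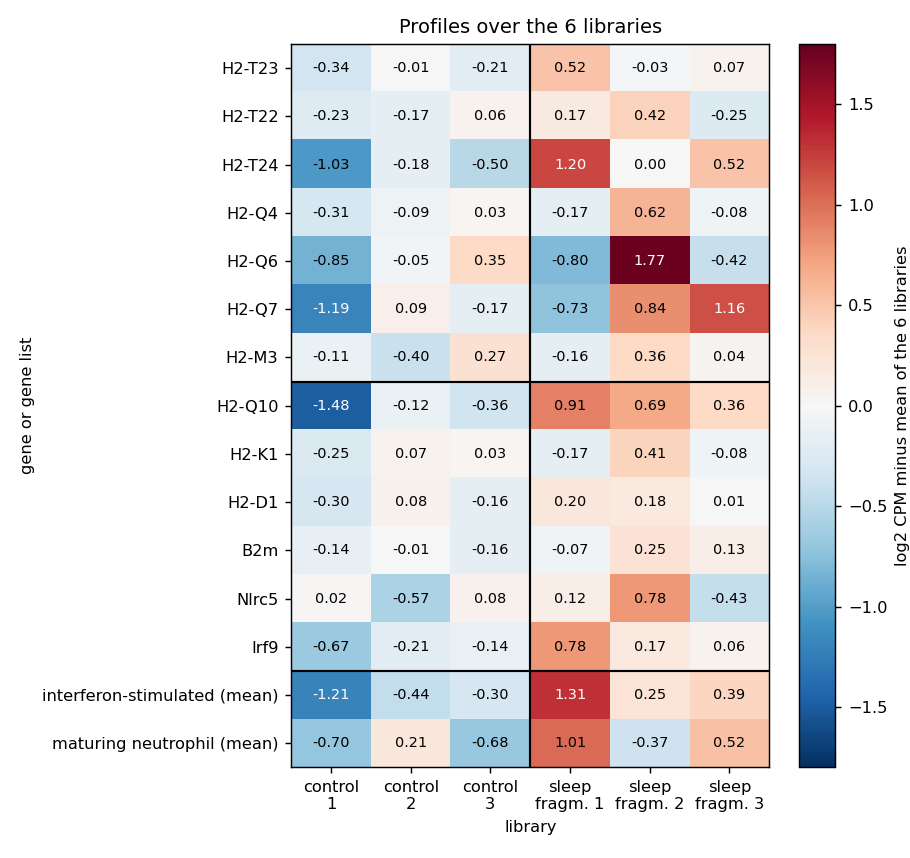
Log2 CPM minus the mean of the 6 libraries for the members (top), related and regulatory genes (middle) and the mean of 2 gene lists (bottom), with libraries as columns. H2-T24 and the interferon-stimulated list are both highest in sleep fragmentation replicate 1, while H2-Q4, H2-Q6, H2-K1 and Nlrc5 are highest in sleep fragmentation replicate 2.

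Genes whose profile lay closest to a member's were sought among 9502 genes with a mean of at least 5 CPM, by the root mean square difference of centred log2 CPM over the 6 libraries. For H2-T24 these were Gm38525, a predicted gene, Bmx, a tyrosine kinase of the Tec family, and Adam19, a membrane metalloprotease, each at a difference of 0.13 beside an SD of 0.78 for H2-T24 itself. Bmx had 27.8, 46.8 and 34.4 CPM in control and 100.1, 46.2 and 68.2 CPM after sleep fragmentation. No gene lay so close to the rarer members. For H2-Q6 the nearest was Fam174b at 0.44, followed by Ppp1r15a, a regulator of the stress response. For H2-Q7 they were Egr1, an immediate early transcription factor, at 0.42, Ppp1r15a and Rabepk.

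Among other nonclassical and class I-like genes, 17 of 42 listed were in the table and 8 passed the filter, of which 3 had fitted levels above control (median log2 fold change -0.06). This median turned to 0.15 without sleep fragmentation replicate 1, 0.078 without replicate 2 and 0.012 without replicate 3 of that group. None passed edgeR's test over all genes, DESeq2 or limma-voom. At an unadjusted p under 0.05 edgeR put 1 gene higher and 1 gene lower. The higher was H2-Q10, a secreted class I molecule best known from liver, with counts of 77, 200 and 177 in control and 349, 361 and 241 after sleep fragmentation. Its libraries did not overlap, at 4.73 ± 2.05 against 11.03 ± 2.08 CPM (SD, n = 3) and a log2 fold change of 1.22 (SE 0.34, edgeR adjusted p = 0.99988). Windows of the H2-Q10 transcript itself were not searched. Of the 50-base windows of H2-T22, 2.92% were also in H2-Q10, as were 2.76% of those of H2-Q7. Values of H2-Q10 are therefore uncertain too. The lower was Hfe, a class I-like protein that regulates iron uptake, at 19.4 ± 3.86 against 14.1 ± 1.79 CPM. Fcgrt, the neonatal Fc receptor, had 3.48 ± 0.98 against 4.55 ± 0.28 CPM, and Cd1d1, which presents lipids, 16.5 ± 0.59 against 15.6 ± 2.67 CPM.

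The classical chains and the peptide loading machinery, which the nonclassical chains share in part, had a lower median log2 fold change than the members. That order turned without sleep fragmentation replicate 2, where the medians were 0.099 for these genes and 0.082 for the members. Of 16 such genes 13 had fitted levels above control, with a median log2 fold change of 0.13, and 0 passed edgeR's test or had an unadjusted p under 0.05 (DESeq2 and limma-voom also called 0). H2-K1 had 543.5 ± 64.4 against 590.5 ± 133.0 CPM, H2-D1 909.0 ± 122.7 against 1085 ± 76.0 CPM and B2m 1277 ± 74.6 against 1479 ± 164.7 CPM (SD, n = 3). Tap1, a chain of the peptide transporter, had 92.4 ± 6.73 against 104.0 ± 14.4 CPM. The immunoproteasome subunit Psmb9 had 51.2 ± 2.61 against 59.4 ± 5.05 CPM, and the proteasome activator Psme1 152.7 ± 21.0 against 176.4 ± 21.0 CPM.

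Among 14 transcription factors of class I genes 10 had fitted levels above control (median log2 fold change 0.16), 0 passed edgeR's test over all genes, DESeq2 or limma-voom, and 2 were higher at an unadjusted p under 0.05. The list median was 0.036 without sleep fragmentation replicate 1 and -0.0054 without replicate 1 of both groups. Among them Irf9, part of a factor that binds interferon elements, had 34.9, 48.1 and 50.5 CPM in control and 95.5, 62.4 and 57.8 CPM after sleep fragmentation, with replicate 1 highest and no overlap. Nlrc5, the class I transactivator, had 23.5, 15.6 and 24.5 CPM in control and 25.2, 39.9 and 17.2 CPM after sleep fragmentation. It was highest in sleep fragmentation replicate 2, as were H2-Q4, H2-Q6, H2-T22 and H2-M3. Its lowest library was control replicate 2, where only H2-M3 of these members was lowest. The part of Nlrc5 in their levels was not tested. Irf1, an activator induced by interferon, had 59.6 ± 7.24 against 74.7 ± 14.2 CPM, and Nfyb, a subunit of the factor that binds CCAAT, had 65.5 ± 7.63 against 76.6 ± 10.5 CPM.

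Receptors that bind class I molecules are mostly genes of NK and T cells, but myeloid cells carry inhibitory ones. Of 12 listed 7 passed the filter, 6 with fitted levels above control (median log2 fold change 0.67), and 0 passed edgeR's test over all genes, while DESeq2 called 1, Klra2, and limma-voom 0. The list was written from general knowledge, and class I binding of each receptor, Lilrb4a among them, was not checked. The list median was 0.074 with the mean level of maturing neutrophil markers as covariate. Klra2, of the Ly49 family, was higher at an unadjusted p under 0.05 with no overlap (12.4 ± 3.35 against 25.8 ± 5.32 CPM). Pirb, an inhibitory receptor of myeloid cells for class I, was higher at that level too, with 145.2 ± 36.6 against 249.96 ± 109.1 CPM and overlapping groups. Lilrb4a, an inhibitory receptor of myeloid cells, had 216.4 ± 47.6 against 313.5 ± 101.9 CPM and Klrk1, the receptor NKG2D, 2.49 ± 0.53 against 3.97 ± 1.69 CPM. Klrd1 and Klrc1, which form the Qa-1 receptor, were at 0.92 CPM or less in each library.

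The sorted cells carried progenitor markers, but maturing neutrophil markers had a higher summed level in each library. The summed level of 8 progenitor markers, among them Mpo, Elane and Kit, lay between 16514 and 18731 CPM in control and between 11965 and 17915 CPM after sleep fragmentation. Of these 8, 7 had fitted levels below control, as had 6170 of 12097 genes. Groups were set apart in the lower direction in 2 of them, and in 3.84% of all genes. None had an edgeR unadjusted p under 0.05. Maturing neutrophil markers, like H2-T24 and H2-T23, were highest in sleep fragmentation replicate 1, but were not alike in every library. The summed level of 8 such genes was 27202, 39095 and 21641 CPM in control and 65050, 22780 and 47068 CPM after sleep fragmentation. In sleep fragmentation replicate 2 this sum lay below control replicates 1 and 2, while H2-T24 was above every control. The mean centred log2 CPM of these 8 markers in that library was -0.37. This was above control replicates 1 and 3 (-0.70 and -0.68) and below control replicate 2 (0.21). With the mean log2 level of those markers as covariate, added once the values were known, the log2 fold change was 0.53 for H2-T24 and 0.11 for H2-T23 (edgeR adjusted p = 0.65 and 0.86), and 0.53 for H2-Q4 and 0.49 for H2-M3. With this covariate the log2 fold change was 0.39 for H2-T22, 1.35 for H2-Q6 and 1.07 for H2-Q7. All 7 members stayed above control, with a median log2 fold change of 0.53, beside 0.39 without the covariate. The same covariate put the list median log2 fold change of the transcription factors at 0.0030 and that of the other nonclassical genes at 0.22. The summed level of 18 interferon-stimulated genes was 252.0, 370.4 and 338.7 CPM in control and 1029, 449.2 and 535.1 CPM after sleep fragmentation, with no overlap. All 18 had fitted levels above control, 14 at an unadjusted p under 0.05, and edgeR called 0 and DESeq2 7 of them. Their median log2 fold change was 1.41, but 0.77 with the maturing neutrophil covariate and 0.70 without replicate 1 of both groups. The part of the neutrophil and interferon-stimulated genes in the members' differences was not tested. Of other cells, the 4 T cell markers in the table summed to between 2.07 and 2.83 CPM in control. After sleep fragmentation they summed to between 2.29 and 5.61 CPM. Cd3e was at 0 in control replicate 2 and Cd3g at 0 in sleep fragmentation replicate 2. Cd3d had counts of 25, 39 and 25 in control and 91, 30 and 99 after sleep fragmentation. Of the 2 that passed the filter, Cd3d was higher and Lck lower (log2 fold change 1.51 and -0.41, edgeR unadjusted p = 0.023 and 0.51). Their part in the members' differences was not tested. The 5 NK cell markers summed to between 244.5 and 261.1 CPM in control and between 169.4 and 257.8 CPM after sleep fragmentation, nearly all of it Nkg7. Ncr1, a receptor that defines NK cells, had counts of 7, 1 and 12 in control and 6, 16 and 33 after sleep fragmentation, and Klrb1c had 22, 9 and 11 against 2, 10 and 32. Both were highest in sleep fragmentation replicate 3, where H2-Q7 was highest, and their part in that was not tested. The 5 B cell markers summed to between 12.2 and 19.1 against 12.5 and 17.4 CPM, the 5 dendritic cell markers to between 3.57 and 6.30 against 3.19 and 5.01 CPM, and the 5 macrophage markers to between 187.8 and 264.8 against 198.5 and 265.2 CPM. The 6 erythroid markers lay between 3.60 and 19.1 CPM in control and between 10.9 and 24.2 CPM after sleep fragmentation, and their part in the members' differences was not tested. The 4 megakaryocyte markers summed to between 41.1 and 73.1 against 44.7 and 61.6 CPM, and the 5 stem cell markers to between 14.7 and 17.3 against 12.9 and 15.4 CPM.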

How the data were processed

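RNA-seq read counts of 6 libraries were analysed, 3 per group, grouped by the sample titles. The deposited table holds raw counts per gene, which were whole numbers in each column and were used as the authors deposited them. The tools named per the submitters' processing notes are fastp, HISAT2 and HTSeq, and the build is GRCm39; versions, strand setting, annotation release and the treatment of reads that match several genes are not given in the sources used here. Near copies among the class I genes can lose or exchange reads at that step, and reads of overlapping antisense genes cannot be told apart since strand use is unstated. No GRCm39 coordinates are given, and the sequences shown are of GRCm38.

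The fit used edgeR 4.0.16 under R 4.3.3: filterByExpr (minimum count 10, minimum total 15), TMM factors (between 0.910 and 1.086), and its robust quasi-likelihood test, with p-values of the 12097 tested genes adjusted by Benjamini and Hochberg's method (threshold 0.05). Log2 CPM profiles used a prior count of 2. DESeq2 1.42.0 and limma-voom 3.58.1, other scalings and filters, a replicate block and leaving out libraries were alternatives. Exon lengths and transcript windows came from GENCODE M21 and promoters from RefSeq GRCm38.p6. The members and gene lists were chosen with earlier results of these data known. Named genes were the members, up to 4 genes with the smallest p of each of 4 class I lists, 6 fixed genes, of which 1 is not reported here, and up to 3 genes with the closest profile for members spanning over 1 log2 unit. H2-Q9, Klrd1, Klrc1, Mpo, Elane, Kit, Cd3e, Cd3g, Nkg7, Ncr1 and Klrb1c were named after their values were seen.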

Additional observations from a re-analysis of the deposited data

How the results depend on the processing

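Directions of H2-T24, H2-T23, H2-T22 and H2-Q7 held in the alternatives that tested them, 15 each and 14 for H2-Q7, with no adjusted p under 0.05 for any of the 7 members. H2-T24 had a log2 fold change between 0.53 and 1.43, with an unadjusted p under 0.05 in 15 of 15 and an adjusted p between 0.13 and 1. Without sleep fragmentation replicate 2, H2-Q4 (-0.0084), H2-Q6 (-0.54) and H2-M3 (-0.0013) reversed, where the highest values with 1 library left out were 0.43, 1.21 and 0.35, and the cause was not tested. H2-Q9 reversed from -0.33 to 0.0089 without sleep fragmentation replicate 1, to 0.012 without replicate 3 and to 0.19 with the maturing neutrophil covariate, and was -1.45 without replicate 2. Over the fits that left out 1 library each, the number of members above control lay between 4 and 7 and their median log2 fold change between 0.082 and 0.48. Without replicate 1 of both groups H2-T24 was at 0.61 and H2-T23 at 0.13. The stricter filter removed H2-Q6 and H2-Q7.

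DESeq2 called 13 genes and the other alternatives 0. The number of genes at an unadjusted p under 0.05 lay between 155 (without control replicate 1) and 1330 (without sleep fragmentation replicate 2), and was 863 with the covariate and 169 with the replicate block. Whether replicate numbers pair the samples is not given in the labels. Deviations of same-numbered libraries from their group means correlated at -0.25, -0.37 and -0.006. With 3 libraries per group these values cannot decide it. With the block, H2-T24 was at 1.14 and the members' median at 0.37, with 7 of 7 above control. Counting error limits H2-Q6 and H2-Q7, which had as few as 14 and 27 reads.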
